A study of Sus scrofa with 16 samples.

Results

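A set of 6 enzymes of bile acid, urate, cofactor and amino acid metabolism, CYP7A1, CYP8B1, UOX, QDPR, VNN1 and GOT1, were followed across 4 tissues of the pig. They were chosen by gene symbol as metabolic enzymes with known roles in liver, when earlier results of these data were known. Each was measured by 1 row of a table of 20736 rows. They are 6 of the 175 genes to which the array's annotation gave a symbol. The animals were 4 gilts (young sows) of about 165 days, untreated as far as the labels say, and the tissues were liver, brain stem, longissimus (skeletal) muscle and what the labels call uterine endothelium. Tissue RNA was amplified, labelled with Cy3 or Cy5 and hybridised in pairs to 16 spotted arrays of oligonucleotides. Each gilt supplied its 4 tissues to its own closed circle of 4 arrays, so the gilt was the replicate and n was 4 for every tissue.

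In textbook terms, hepatocytes turn cholesterol into bile acids. CYP7A1 hydroxylates cholesterol in the first and rate-limiting step of the main route, and CYP8B1 is the sterol hydroxylase that commits intermediates to cholic acid. UOX, urate oxidase, is a liver peroxisomal enzyme that degrades uric acid on the way to allantoin and is inactive as a gene in humans. QDPR regenerates tetrahydrobiopterin, the cofactor with which phenylalanine is hydroxylated in liver and the precursors of dopamine and serotonin are made in neurones. VNN1 splits pantetheine into cysteamine and pantothenate, the vitamin from which coenzyme A is built. GOT1, the cytosolic aspartate aminotransferase, serves the malate-aspartate shuttle and is known from muscle and heart as well as liver.

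The authors deposited 1 log ratio per row and array. No source used here states its base or direction. It was read as log2, since the largest absolute value, 10.42, would be an implausible fold as a natural log, and as Cy5 over Cy3. The direction rests on genes outside the set. CRP, PROC and MBL2, plasma proteins secreted by hepatocytes, then stood highest in liver (between 2.08 and 2.69, between 1.85 and 2.30, and between 1.34 and 2.16 over the gilts), and MYOD1, a myogenic transcription factor, stood between 0.72 and 1.01 in muscle. Those values were known when the direction was chosen, so it is likely and not settled, and with the other direction every "higher" below becomes "lower". The 4 ratios of a gilt were turned into 4 tissue values with sum 0 by least squares, so that every value below is a log2 level against the average over that animal's own tissues and cannot be set against the level of another gene. Array medians lay between -0.01 and 0.01, array SDs between 0.52 and 1.00, and no intensity was at hand to tell dim spots from bright ones. Of 18 hepatocyte markers listed, CRP, PROC and MBL2 were the 3 with a named row. Of 13 markers of skeletal muscle 2 were named, MYOD1 and MYH7. MYH7 was not higher in muscle (-0.04 ± 0.09, SD, n = 4) and stood highest in liver (0.19 ± 0.03). Its liver excess over the mean of the other tissues was 0.25 (limma adjusted p = 0.045), while its F test did not pass (limma adjusted p = 0.065). Of 12 neural markers 4 were named, and of 10 endothelial and stromal markers only CAV1, which stood at 1.09 ± 0.35 in uterine endothelium. In brain stem CEND1 and GAD2, neuronal genes, stood at 0.22 ± 0.08 and 0.25 ± 0.24, above their other tissues, but GAD1 was at 0.0065 ± 0.05 there against 0.10 ± 0.02 in liver, and GLRB was lowest in brain stem, at -0.26 ± 0.11. Of the single named markers of uterine epithelium, leukocytes and red cells, FOLR1 (of 7) stood at 1.05 in uterine endothelium and 1.15 in liver, CD4 (of 8) at 0.15 in liver, and 0 of 3 red cell genes had a named row. The labelled tissues could therefore be checked on few genes, and CRP, PROC, MBL2 and MYOD1 among them had also served to choose the direction.

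All 6 enzymes differed among the tissues in limma's F test, with adjusted p = 1.3e-07 for UOX, 1.9e-06 for QDPR, 0.00025 for GOT1, 0.00037 for CYP7A1, 0.027 for VNN1 and 0.047 for CYP8B1. So did 61.2% of all rows, and that count alone does not mark them. UOX, QDPR and CYP7A1 were higher in liver than in each of the other 3 tissues, a pattern met by 7.1% of rows. GOT1 was higher in liver than in uterine endothelium and brain stem, with no call against muscle. CYP8B1 and VNN1 were not higher in liver than in any tissue past the threshold, and no member was lowest in liver (0.444% of rows were). Against the mean of the other 3 tissues, 4 of 6 members were higher in liver (14.2% of rows) and 0 were lower. Among the 178 rows with a symbol, members included, 40 were higher and 17 lower. The median of liver minus that mean was 0.78 over the 6 members, 0.0030 over the 178 rows with a symbol and -0.03 over all rows. The members were picked for roles in liver, with earlier results of these data known. These comparisons with other rows describe the members and do not test them as a set. In whole tissue, more cells that express a gene and more of its RNA per cell cannot be told apart.

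**Figure D1:**
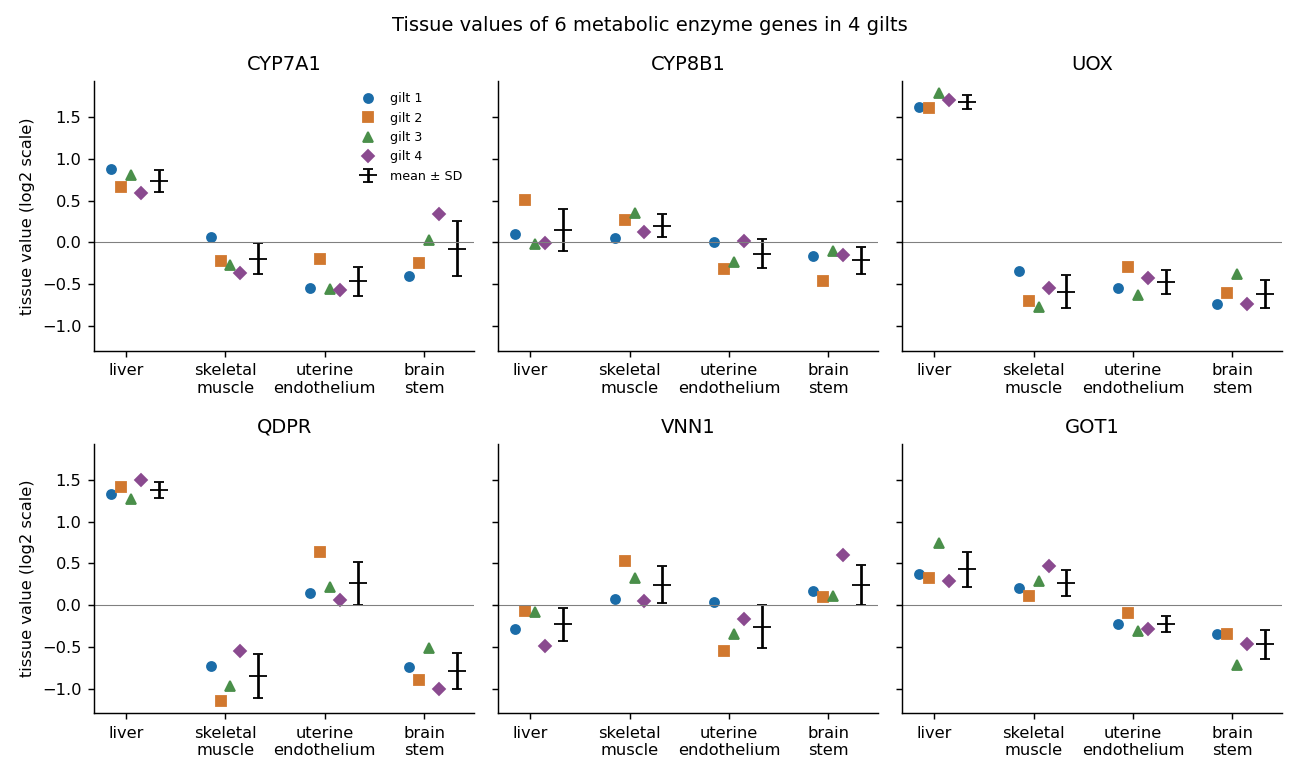
Tissue values (log2 scale, 0 being the average of the 4 tissues in that gilt) of the 6 genes; points are single gilts, and the bar beside them is the mean ± SD over 4 gilts. UOX, QDPR and CYP7A1 have all 4 liver points above every other point. Liver overlaps muscle for GOT1, muscle and uterine endothelium for CYP8B1, and uterine endothelium for VNN1.

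UOX had the largest liver excess of the set, with the smallest SD over gilts in liver. In gilts 1 to 4 its liver values were 1.62, 1.61, 1.78 and 1.70. All other tissues lay far below and overlapped one another. Muscle stood at -0.34, -0.70, -0.77 and -0.54, uterine endothelium at -0.54, -0.30, -0.63 and -0.42, and brain stem at -0.74, -0.61, -0.38 and -0.74. The liver mean was 1.68 ± 0.08 (SD, n = 4), against -0.59 ± 0.19, -0.47 ± 0.14 and -0.62 ± 0.17. Liver exceeded muscle by 2.27 ± 0.12 (SE; limma adjusted p = 1.2e-07), uterine endothelium by 2.15 ± 0.12 (limma adjusted p = 2.0e-07) and brain stem by 2.30 ± 0.12 (limma adjusted p = 9.7e-08). As folds on the inferred base these are 4.82, 4.45 and 4.92. Among the other 3 tissues no pair was called, and the 95% intervals of the 3 differences lay between -0.37 and 0.40. By its liver excess over the average of the other tissues, 2.24, UOX ranked 283 from the top of 20736 rows.

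Single arrays, from which the tissue values were solved, gave the same direction and are no separate evidence. Of the 16 arrays, 8 carried liver RNA, 4 with it in Cy5 and 4 in Cy3. For UOX the ratio turned towards liver was above 0 on 8 of 8, between 2.11 and 2.68 with liver in Cy5 and between 1.69 and 2.57 with liver in Cy3. The dyes thus overlapped, and liver was favoured in both. Each such ratio can also be had from the 3 other arrays of its circle, and for UOX that detour gave between 1.63 and 2.95.

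QDPR was highest in liver too, but with uterine endothelium in between. Its liver values were 1.33, 1.41, 1.27 and 1.49 in gilts 1 to 4. Uterine endothelium followed at 0.14, 0.64, 0.21 and 0.06, above 0 in every gilt. Muscle, at -0.73, -1.15, -0.97 and -0.55, and brain stem, at -0.74, -0.90, -0.51 and -0.9997, shared the lowest place. The 3 levels so formed did not overlap over the gilts. Liver exceeded uterine endothelium by 1.11 ± 0.16 (SE; limma adjusted p = 0.00047), which is 2.16-fold, muscle by 2.23 ± 0.16 (limma adjusted p = 1.4e-06) and brain stem by 2.16 ± 0.16 (limma adjusted p = 1.5e-06). Uterine endothelium in turn exceeded muscle by 1.11 ± 0.16 (the coded difference, muscle minus uterus, was -1.11; limma adjusted p = 0.00050) and brain stem by 1.05 ± 0.16 (limma adjusted p = 0.00040). Muscle minus brain stem was -0.07, with a 95% interval from -0.42 to 0.29 and limma adjusted p = 0.78.

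QDPR was also the member whose circles of arrays closed least well in gilts 1 and 2. Around a closed circle the 4 ratios should sum to 0 apart from a dye effect, which the solved tissue values leave out. For QDPR their mean was 0.54, 0.30, 0.11 and 0.07 in gilts 1 to 4, and in gilt 1 the size of that mean exceeded that of 99.2% of rows. Among the members the largest mean was that of GOT1 in gilt 3 (0.29) and of VNN1 in gilt 4 (0.41). The direct array of liver with brain stem in gilt 1 gave 2.61 towards liver, and the detour over the 3 other arrays gave 0.44. Both paths favoured liver, as they did on all 8 arrays with liver RNA, whose ratios towards liver ran from 0.47 to 2.86. A dye effect of 0.26 ± 0.09 (SE) did not pass for this row (limma adjusted p = 0.20), nor did one for any other member.

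**Figure D2:**
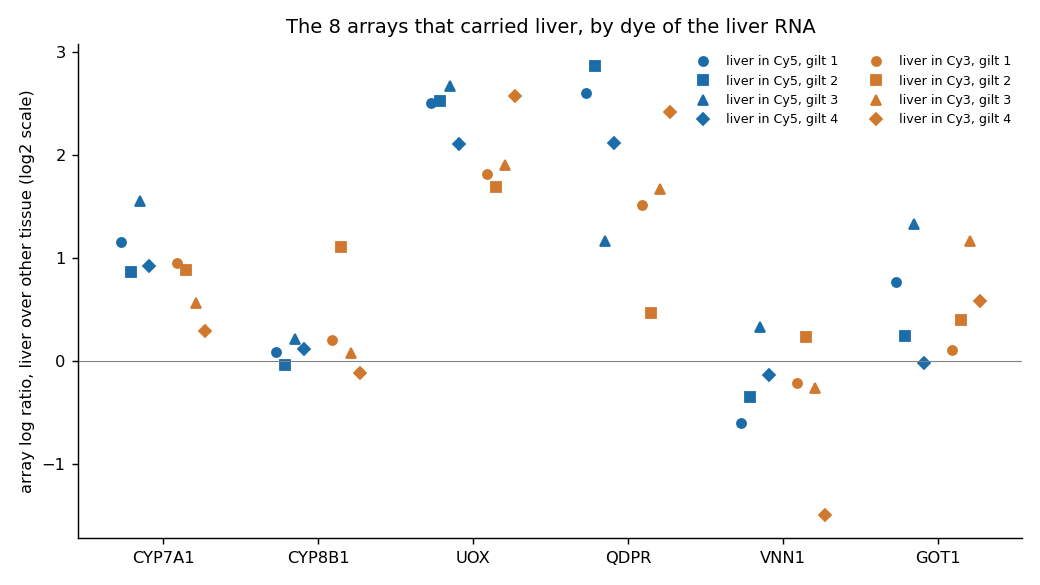
Log ratio towards liver (log2 scale) on the 8 arrays that carried liver RNA, by gene; colour gives the dye of the liver RNA and shape the gilt. All 8 points of UOX, QDPR and CYP7A1 lie above 0, against 7 for GOT1, 6 for CYP8B1 and 2 for VNN1.

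CYP7A1 had a smaller liver excess. Its liver values were 0.88, 0.67, 0.80 and 0.59, above every value of the other tissues. In muscle they were 0.06, -0.22, -0.27 and -0.37, and in uterine endothelium -0.54, -0.20, -0.55 and -0.57, where gilt 2 stood apart from the other three. Brain stem spread most, with -0.41, -0.25, 0.03 and 0.34 in gilts 1 to 4, an SD of 0.33 against 0.13 in liver. Accordingly liver minus brain stem was 1.29, 0.92, 0.77 and 0.26 in the gilts, positive in 4 of 4 but uneven. Its mean was 0.81 ± 0.16 (SE; limma adjusted p = 0.0021, 1.75-fold). As for every pair here, that SE and p rest on the spread pooled over all 4 tissues and do not measure this unevenness. Liver exceeded muscle by 0.93 ± 0.16 (limma adjusted p = 0.0011) and uterine endothelium by 1.20 ± 0.16 (limma adjusted p = 0.00027, 2.30-fold). The others were ordered brain stem, muscle, uterine endothelium, and no pair of them was called. The largest gap, uterine endothelium minus brain stem, was -0.39 with a 95% interval from -0.75 to -0.04 (limma adjusted p = 0.072). It passed without gilt 1 (-0.48, adjusted p = 0.045) and with no gilt block (-0.37, 0.047), and was -0.22 without gilt 4 (0.31). On the arrays, ratios towards liver ran from 0.87 to 1.56 with liver in Cy5 and from 0.29 to 0.95 with liver in Cy3. The lowest, 0.29, was the array of liver with brain stem in gilt 4.

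CYP8B1, which acts after CYP7A1 in the same route, did not follow it. Its liver values were 0.10, 0.51, -0.02 and -0.0010, so that gilt 2 alone stood clearly above 0. Muscle, at 0.06, 0.27, 0.35 and 0.13, overlapped liver and had the higher mean (0.20 ± 0.13 against 0.15 ± 0.25, SD, n = 4). Uterine endothelium stood at 0.0010, -0.32, -0.23 and 0.02, and brain stem at -0.16, -0.46, -0.10 and -0.15, below 0 in every gilt. Liver minus muscle was -0.05, with a 95% interval from -0.36 to 0.25 (limma adjusted p = 0.84). Liver minus uterine endothelium was 0.28 ± 0.14 (SE; limma adjusted p = 0.17), and liver minus brain stem was 0.36 ± 0.14, above 0 in 4 of 4 gilts without passing (limma adjusted p = 0.059). The interval of the last difference, from 0.06 to 0.67, lay below that of UOX, from 2.04 to 2.55. Muscle minus brain stem was the only called pair, at 0.42 ± 0.14 (limma adjusted p = 0.033).

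The calls of CYP8B1 lay close to the threshold. Its F test (limma adjusted p = 0.047) no longer passed without any 1 of the gilts (adjusted p from 0.078 to 0.13) or with a random gilt block (0.11), and the call of muscle against brain stem was lost, at a difference of 0.40 to 0.48, without gilt 1, 3 or 4 (0.063 to 0.10), and at 0.39 with that block (0.086). Without gilt 2, liver minus brain stem was 0.16 and liver minus uterine endothelium 0.0976. In gilt 2 the direct array of liver with uterine endothelium gave 1.11 towards liver and the 3 other arrays gave 0.0018, while that of liver with muscle gave -0.04 directly and 1.08 by the others. Between CYP7A1 and CYP8B1, Pearson's r over the 16 tissue values was 0.28, against 0.87 between CYP7A1 and UOX and 0.89 between UOX and QDPR. These are descriptions over values that share gilts and arrays.

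VNN1 was lower in liver than in brain stem. Its liver values were -0.28, -0.07, -0.08 and -0.49, below 0 in all gilts. Uterine endothelium overlapped them at 0.04, -0.55, -0.35 and -0.16. Muscle, at 0.08, 0.53, 0.33 and 0.05, and brain stem, at 0.17, 0.10, 0.11 and 0.60, were above 0 throughout and thus did not overlap liver. Liver minus brain stem was -0.47 ± 0.17 (SE; limma adjusted p = 0.048), in the direction found for 16.5% of rows, and uterine endothelium minus brain stem was -0.50 ± 0.17 (limma adjusted p = 0.036). Liver minus muscle, -0.48 ± 0.17, was of the same size but did not pass (limma adjusted p = 0.062), nor did muscle minus uterine endothelium, 0.50 ± 0.17 (limma adjusted p = 0.0501). The raw p of these 4 differences lay between 0.013 and 0.018, and p-values were adjusted within each contrast, of which those with brain stem had more rows called. The remaining pairs were level in the mean: liver minus uterine endothelium was 0.02, with a 95% interval from -0.35 to 0.40, and muscle minus brain stem was 0.0022, from -0.37 to 0.38.

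In brain stem, gilt 4 stood above the other gilts for VNN1. Its array of liver with brain stem gave -1.496 towards liver, whereas the 3 other arrays of that circle gave 0.15, and the mean ratio around the circle, 0.41, was larger in size than that of 97.6% of rows. Without gilt 4, liver minus brain stem was -0.27 (limma adjusted p = 0.26); it also lost its call without gilt 1 (-0.48, adjusted p = 0.10) or 3 (-0.57, adjusted p = 0.092), though no smaller in size. Uterine endothelium minus brain stem lost its call without gilt 2, 3 or 4 at -0.45, -0.51 and -0.41 (adjusted p from 0.078 to 0.12). Likewise the F test of VNN1 (adjusted p = 0.027) no longer passed without gilt 2, 3 or 4 (0.068, 0.11 and 0.051).

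GOT1 divided the tissues into a higher and a lower pair. Liver stood at 0.37, 0.33, 0.74 and 0.29 in gilts 1 to 4, and muscle at 0.20, 0.11, 0.29 and 0.47. Both were above 0 in every gilt and overlapped. Uterine endothelium, at -0.22, -0.09, -0.31 and -0.28, and brain stem, at -0.35, -0.35, -0.72 and -0.47, were below 0 in every gilt. Liver exceeded brain stem by 0.90 ± 0.12 (SE; limma adjusted p = 0.00016, 1.87-fold) and uterine endothelium by 0.66 ± 0.12 (limma adjusted p = 0.0028, 1.58-fold). Muscle exceeded the same tissues by 0.74 ± 0.12 (limma adjusted p = 0.00071) and 0.49 ± 0.12 (limma adjusted p = 0.013), the second of which was lost without gilt 1 (adjusted p = 0.052) or gilt 4 (0.084). Within the pairs, liver minus muscle was 0.16 with a 95% interval from -0.11 to 0.44 (limma adjusted p = 0.41), and uterine endothelium minus brain stem was 0.24, from -0.03 to 0.52 (limma adjusted p = 0.14), though above 0 in 4 of 4 gilts. In gilt 3 liver minus brain stem reached 1.46, against 0.67 to 0.76 in the others. There the array of liver with brain stem gave 1.17 towards liver, and the 3 other arrays of that circle gave 2.33. The mean ratio around the circle, 0.29, was larger in size than that of 95.9% of rows. Without gilt 3, liver minus brain stem was 0.71 (limma adjusted p = 0.0015).

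**Figure D3:**
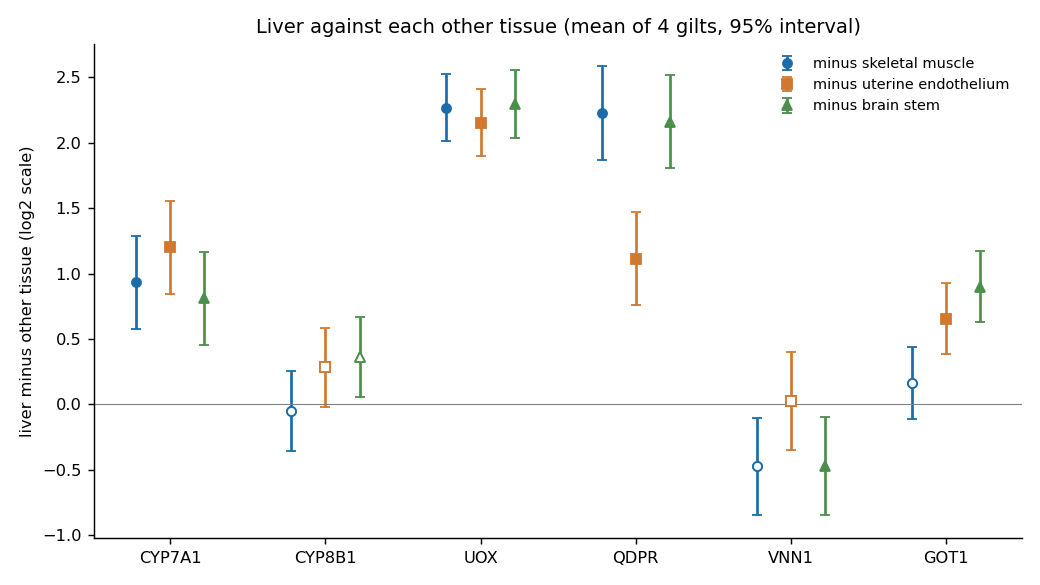
Liver minus each other tissue (log2 scale), fitted mean of 4 gilts with its 95% interval; filled symbols passed limma's test after adjustment over all rows and open symbols did not. UOX lies above 2 against all 3 tissues, QDPR only against muscle and brain stem, and VNN1 is the only gene with a filled symbol below 0.

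Set side by side, 18 of the 36 pairwise comparisons of the 6 genes were called. Many other rows were called too, so that total alone does not mark the members, and shares of all rows follow. Against muscle 3 members were higher in liver, where 13.3% of rows were. Against uterine endothelium 4 were higher (12.1% of rows), and against brain stem 4 were higher (21.1% of rows) and 1 lower (16.5% of rows). Comparisons without liver called 2 members each, in either direction, with 26.4% of rows called between muscle and uterine endothelium, 39.1% between muscle and brain stem and 41.8% between uterine endothelium and brain stem. The members' 2 of 6 lay near those shares.

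**Figure D4:**
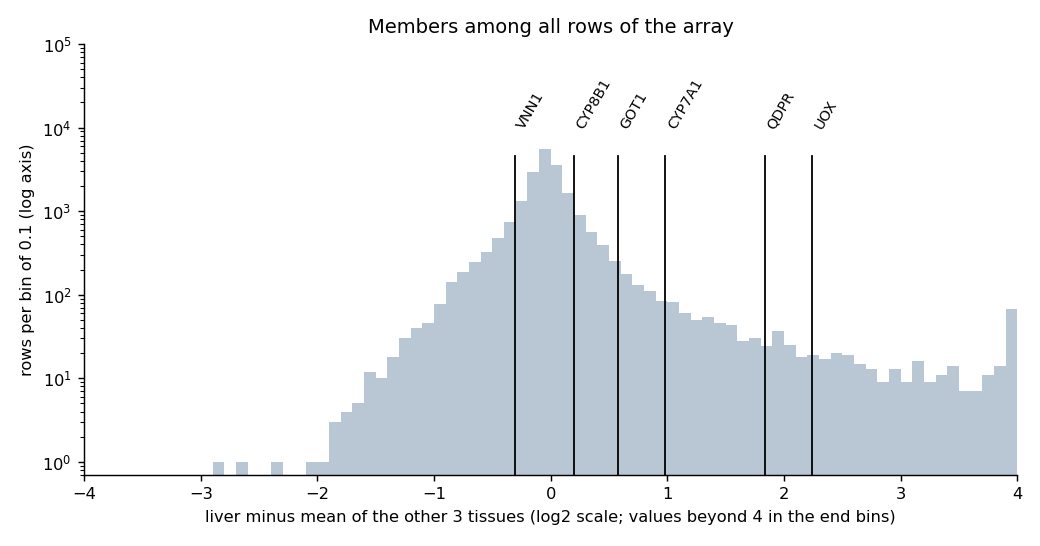
Liver minus the mean of the other 3 tissues (log2 scale) for all 20736 rows, in bins of 0.1 on a log axis, with the 6 genes as vertical lines. UOX (2.24) and QDPR (1.83) lie in the long upper tail, CYP7A1 (0.98) and GOT1 (0.57) on its shoulder, and CYP8B1 (0.20) and VNN1 (-0.31) within the bulk of rows.

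In that distribution 98.6% of rows were lower than UOX, 98.2% lower than QDPR, 96.1% lower than CYP7A1, 93.5% lower than GOT1, 83.5% lower than CYP8B1 and 11.1% lower than VNN1. The spread left after tissue and gilt was larger in the members than in most rows, with an SD of 0.18 for UOX, 0.19 for GOT1, 0.21 for CYP8B1, 0.25 for CYP7A1 and QDPR and 0.27 for VNN1, against a median of 0.13 over all rows. In the order of the table, no member directly followed a row with a mean tissue value of 1 or more in size. The largest such value was 0.87, in uterine endothelium, in the row before CYP7A1, where CYP7A1 itself was lowest. Of the rows directly after a member, that after VNN1 stood at -0.69 in liver and 0.74 in brain stem (Pearson r with VNN1 0.65). The row after UOX stood at 0.64 in brain stem (Pearson r with UOX -0.30). Whether neighbouring rows affected one another was not tested.

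Among the 172 other rows with a symbol, the profile of UOX over the 16 tissue values was most like those of PROC (Pearson r = 0.99) and CRP (0.98). CYP7A1 was closest to GAL3ST2 (0.94), a sulfotransferase, and FSHR (0.92), the receptor of follicle-stimulating hormone. For QDPR the closest were PDZD11 (0.89) and IL1A (0.86), and for GOT1 TNFSF8 (0.87) and SLC22A2 (0.86), an organic cation transporter. VNN1 was closest to the receptors SSTR2 (0.94) and MC1R (0.93). CYP8B1 was closest to ASIP (0.85) and SLC22A2 (0.80), but ASIP had 4 probes, and the others gave 0.35, 0.63 and 0.78. A likeness of profile says nothing of the size of a difference: FSHR exceeded the mean of the other tissues in liver by 0.29, against 0.98 for CYP7A1.

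Few other genes of these pathways had a named row. Of 34 listed genes of bile acid synthesis, transport and control, 18 of tetrahydrobiopterin and aromatic amino acid metabolism, 14 of pantothenate and coenzyme A metabolism and 20 of the aspartate and malate shuttle and its neighbours, 0 had a named row besides the members. Of 14 genes of purine and urate handling 1 was named, the phosphate and urate transporter SLC17A1. It differed among tissues (limma adjusted p = 0.0096), with 0.13 ± 0.09 in liver and 0.34 ± 0.32 (SD, n = 4) in brain stem, and was not called in liver against the mean of the others (0.17 ± 0.12, SE; limma adjusted p = 0.35).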

How the data were processed

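The authors deposited 1 log ratio per row and array, used here as log2 ratios. Scanner, background subtraction and normalization are not stated in the sources used here, nor are log base and sign. Tissues and dyes came from the labels. Each gilt's 4 ratios gave tissue values with sum 0 by least squares. All 20736 rows entered 1 linear model in limma 3.58.1 (R 4.3.3) that held tissue and, as a block, the gilt (9 degrees of freedom were left), since the labels tie each circle of arrays to 1 animal. Tests were two-sided, with default moderation and Benjamini-Hochberg adjustment over all rows at 0.05. Control probes could not be separated from the rest. The script was tested on simulated data. The platform annotation named 178 rows; all 6 members matched the reference gene table by identifier. No genome or probe sequence was used, so no positions are given and cross-hybridisation with related genes was not tested. All 6 members are reported; likeness was taken as the 2 highest Pearson r among other named rows. Members and lists were chosen with earlier results of these data known. Alternatives were array centring and scaling, mode centring of tissues, fits of ratios with a dye term, robust moderation, a filter on SD, leaving out each gilt and the turned sign. Precision is limited by the 4 gilts.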

Additional observations from a re-analysis of the deposited data

Results flagged for a closer look

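Of 66 tissue values and differences of the 6 genes, 5 had 1 gilt well away from the other three (the ratio below is its distance to the closest gilt divided by the range of all 4). About 1 in 20 would be singled out by chance, and these values are not independent. In uterine endothelium, CYP7A1 had -0.20 in gilt 2, whereas the other gilts ranged from -0.57 to -0.54 (ratio 0.933). In brain stem, CYP8B1 had -0.46 in gilt 2, with a range from -0.16 to -0.10 elsewhere (ratio 0.843), and VNN1 had 0.60 in gilt 4, with 0.10 to 0.17 elsewhere (ratio 0.869). Uterine endothelium minus brain stem of CYP8B1 was negative in gilt 3 alone, -0.13, against 0.13 to 0.16 (ratio 0.900). Liver minus brain stem of GOT1 reached 1.46 in gilt 3, against 0.67 to 0.76 (ratio 0.897).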

How the results depend on the processing

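UOX, QDPR and CYP7A1 were highest in liver under all 11 alternatives that kept the sign, among them the fit of the array ratios with no replicate block (3 members) and leaving out each gilt (3 to 3). With the sign turned, 0 were highest and 3 lowest in liver, and liver minus the mean of the others became -2.24 for UOX, -1.83 for QDPR, -0.98 for CYP7A1, -0.57 for GOT1, -0.20 for CYP8B1 and 0.31 for VNN1. The F test called 6 members with no replicate block, 5 with a random one and 4 to 5 without 1 gilt. GOT1 kept its calls against uterine endothelium and brain stem under those 11. Apart from the sign, the differences that changed direction were small ones without a call. Without 1 gilt, muscle minus brain stem ranged from -0.0958 to 0.169 for UOX, from -0.325 to 0.0673 for CYP7A1, from -0.236 to 0.0665 for QDPR and from -0.138 to 0.184 for VNN1, CYP8B1 liver minus muscle from -0.152 to 0.0527, and VNN1 liver minus uterine endothelium from -0.128 to 0.142. Muscle minus brain stem was -0.17 with scaled arrays for UOX and -0.0019 with centred arrays for VNN1. CYP8B1 liver minus brain stem passed with scaled arrays (0.36, adjusted p = 0.048), mode centring (0.40, 0.038), no replicate block (0.37, 0.042) and the SD filter (0.36, 0.049), and was 0.16 (0.27) without gilt 2, where liver minus the mean of the others was 0.0356. VNN1 liver minus brain stem lost its call with mode centring (-0.44, 0.064), with no replicate block (-0.41, 0.062) or a random one (-0.41, 0.10). Its uterine endothelium minus brain stem lost it with mode centring (-0.45, 0.057) and a random replicate block (-0.49, 0.053), while muscle minus uterine endothelium passed under 6 of the 11 (0.50 to 0.66) and was 0.31 (0.28) without gilt 2 and 0.44 (0.22) without gilt 3. Liver minus muscle passed with scaled arrays (-0.51, 0.028) and the SD filter (-0.48, 0.046). The cause was not tested.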
